A study of Arabidopsis thaliana with 12 samples.

Results

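The 250 longest transcription units of the nuclear genome were described in rosettes of *Arabidopsis thaliana* 30 min after UV-C treatment. The span of a gene was taken as its last annotated base minus its first, introns included, and the 250 genes with the longest spans were taken from the 21139 nuclear genes with 5 or more reads in 3 or more of the 12 samples. They were thus chosen by annotated length, and of the measured values only the read counts behind this minimum entered the choice. The study used the *jac1* mutant (allele *jac1-1*), which carries a defect in JAC1, a J-domain protein of the chloroplast accumulation response to light, and the wild type, both in the Columbia-0 *gl1* background (Col-0 *gl1*). Plants were 4 weeks old, had grown in an 8 h photoperiod, and were either exposed to UV-C at 100 mJ cm-2 or left without treatment. The 4 groups were UV-C treated *jac1*, non-treated *jac1*, UV-C treated wild type and non-treated wild type, with 3 biological replicates each, and every replicate pooled at least 4 whole rosettes. The *gl1* mutation, which removes leaf trichomes, was shared by all groups.

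UV-C light joins neighbouring pyrimidine bases of DNA, above all 2 thymines side by side, into photoproducts that stop RNA polymerase II on the transcribed strand. Stalled polymerases are recognised by transcription-coupled repair, and light-driven photolyases reverse the same lesions directly. A longer gene offers more such sites and takes longer to read through, so long transcription units are the usual place to look for blocked elongation. Whether the longest genes changed differently from other genes with similar read counts was the question asked here of each genotype.

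The spans of the 250 genes ran from 8285 to 26498 bases with a median of 9842, and 116 genes exceeded 10 kb. Their median exonic length was 5946.5 bases in 26 blocks of exons, and introns made up a median 42.3% of the span. On the transcribed strand, the 250 genes held between 576 and 2247 TT pairs each (median 879), against a median of 214 in the 20889 other genes, all of which held at least 1. Per kilobase, TT pairs were not more frequent in the 250 genes (median 85.5) than in the others (92.3). As the densest examples rather than typical ones, the stretch of 90 intron bases with the most TT pairs is given for some genes. They are the 3 protein-coding genes with more than a 2-fold decrease in *jac1* and *HAF2*, the only one with more than a 2-fold increase in the wild type. Over the whole span, AT2G25730, AT4G17140, AT4G30990 and *HAF2* held 84.5, 82.4, 87.2 and 98.6 TT pairs per kilobase. Each stretch is the transcribed strand, 5′ to 3′, of the RefSeq TAIR10.1 assembly, with runs of 2 or more adjacent thymines in capitals. Pairs were counted with overlap, on the strand shown.
AT2G25730 (intron 17 of 33, chr2:10963750-10963839, plus strand, 22 TT pairs): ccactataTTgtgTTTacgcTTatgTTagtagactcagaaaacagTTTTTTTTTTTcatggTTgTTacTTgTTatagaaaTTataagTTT
AT4G17140 (intron 64 of 67, chr4:9615025-9615114, plus strand, 16 TT pairs): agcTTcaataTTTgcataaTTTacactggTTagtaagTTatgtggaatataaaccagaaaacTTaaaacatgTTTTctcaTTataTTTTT
AT4G30990 (intron 5 of 33, chr4:15085890-15085979, minus strand, 15 TT pairs): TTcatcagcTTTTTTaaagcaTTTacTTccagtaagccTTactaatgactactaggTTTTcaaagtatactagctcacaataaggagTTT
HAF2 (intron 17 of 17, chr3:6567562-6567651, plus strand, 18 TT pairs): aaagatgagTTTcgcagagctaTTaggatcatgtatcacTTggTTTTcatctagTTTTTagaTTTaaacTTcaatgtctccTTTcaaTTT

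Among 287 nuclear genes at or above the shortest of these spans, 35 did not reach the read minimum and 2 were left out by the rule. The 250 genes comprised 246 protein-coding genes, 3 pseudogenes and 1 antisense RNA, on all 5 chromosomes (71, 38, 52, 33 and 56 genes on chromosomes 1 to 5). Their median was 48.1 CPM (read counts scaled to the library's total over nuclear genes with TMM factors) against 12.3 CPM in the other genes. CPM is not divided by length, and the other genes had a median exonic length of only 1733 bases. The higher CPM is therefore not by itself a higher expression. In 246 of the 250 genes every sample had at least 5 reads, and 6 averaged under 1 CPM. The span of 87 genes overlapped another gene, in 75 cases one on the opposite strand, and since the counting ignored strand and discarded reads shared by 2 genes, their values are less certain.

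Total counts lay between 21939540 and 27194762 in UV-C treated *jac1*, 33999174 and 39098227 in non-treated *jac1*, 20897905 and 24461667 in the UV-C treated wild type, and 34496078 and 40445085 in the non-treated wild type. RNAs that normally lack poly-A tails moved with the treatment. Chloroplast-encoded genes took on average 1.93% of counts in UV-C treated *jac1* against 0.0196% in non-treated *jac1*, and 2.06% in the UV-C treated wild type against 0.0183% in the non-treated wild type. The part of this difference between the libraries in the results below was not tested. Marker levels, unlike the other CPM values, were scaled to total nuclear counts without TMM factors. Those factors averaged 0.83 in UV-C treated *jac1*, 1.07 in non-treated *jac1*, 0.98 in the UV-C treated wild type and 1.15 in the non-treated wild type. Dividing by them would bring treated and non-treated guard cell levels closer together. Leaf markers were abundant in every group, with a summed level of 5 genes between 30125 and 40041 CPM over the 12 samples. Single leaf markers moved in opposite directions on this scale. In *jac1*, LHCB3 had 10612 to 11251 CPM after UV-C, against 2818 to 3346 CPM without treatment, and PSAD-1 was also higher. RBCS1A, RCA and GAPA were lower. In the wild type LHCB3 was higher and RBCS1A, RCA and GAPA were lower, while PSAD-1 overlapped. Both guard cell markers summed to 13.5 to 16.5 CPM in UV-C treated *jac1* against 40.8 to 47.9 CPM in non-treated *jac1*, and to 19.0 to 23.5 CPM in the UV-C treated wild type against 41.5 to 47.0 CPM in the non-treated wild type. Flower, seed and root markers summed to at most 15.6 CPM in any sample. The part of these was not tested either, and in whole rosettes fewer cells of a type and less RNA per cell cannot be told apart. *JAC1* itself (AT1G75100) was not lower in the mutant, with 164 to 177 CPM in UV-C treated *jac1*, 131 to 156 CPM in non-treated *jac1*, 124 to 147 CPM in the UV-C treated wild type and 85.2 to 96.1 CPM in the non-treated wild type, so its level does not check the labels.

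In *jac1*, UV-C treatment left the longest genes lower as a group, by a small amount. Their median log2 FC (UV-C treated over non-treated) was -0.21, with quartiles of -0.41 and -0.03, against 0.05 in the other nuclear genes, and 194 of the 250 (77.6%) lay below 0, against 47.3% of all genes tested. At a Benjamini-Hochberg adjusted p under 0.01 in the quasi-likelihood test of edgeR, 109 of the 250 (43.6%) fell and 15 (6%) rose, where 21.7% of all genes tested fell and 25.7% rose. The direction was thus shifted while the share with any call, 49.6%, was close to the 47.4% of all genes. The changes were shallow: 198 of the 250 lay within 0.5 of 0 on the log2 scale, and 4 passed the test with more than a 2-fold change, each of them lower, where 5.06% of all genes fell and 8.89% rose by that much. A larger log2 FC of 2.23 belonged to AT3G60961, a nucleoside triphosphate hydrolase that averaged 0.125 CPM, and did not pass (adjusted p = 0.0375). All 3 UV-C treated samples lay below all 3 non-treated ones in 128 of the 250 genes, against 29.8% of all genes. They lay above them in 21, against 33.9%. All genes tested had a median of 12.6 CPM, against 48.1 CPM in the 250. Shares over all genes are therefore not matched for read depth, here or in the comparisons below.

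The wild type gave a like picture, with fewer genes past the test. The median log2 FC was -0.19 (quartiles -0.28 and -0.04) against 0.004 in the other genes, and 205 genes (82%) lay below 0, against 50.0% of all genes tested. By the same test 71 of the 250 (28.4%) fell and 8 (3.2%) rose, where 17.2% of all genes fell and 16.7% rose. Past 2-fold, 1 gene fell and 1 rose, against 2.37% and 7.16% of all genes. UV-C treated samples lay below non-treated ones without overlap in 141 of the 250 genes, against 29.6% of all genes, and above them in 21, against 27.9%. When the fit took library-name numbers as a block, 63 of the 250 fell in *jac1* and 46 in the wild type. The count of 71 was not stable to single libraries: it was 43 without replicate 3 of the non-treated wild type, and 47 and 44 without replicates 1 and 2 of the UV-C treated wild type.

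Set against genes of equal CPM, the longest genes were lower after UV-C in both genotypes. CPM is not divided by length, so exonic length was not matched in this comparison. The 250 genes were divided by mean CPM into 10 strata of 25, and the median log2 FC of the other genes in the same CPM range was subtracted in each. The mean of the 10 differences was -0.26 in *jac1*, or -16.2% relative to genes of equal CPM, and -0.12 in the wild type, or -7.89%. In *jac1* the 250 genes were lower in all 10 strata, by differences between -0.06 and -0.38. Wild-type plants had them lower in 9 of 10. The stratum of lowest CPM, up to 9.56, went the other way with a difference of 0.23. Among the 224 genes that averaged at least 10 CPM, the differences were -0.28 in *jac1* and -0.15 in the wild type.

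The same comparison within each sample showed how it stood against the replicate spread. As log2 CPM relative to other genes of equal mean CPM, the level of the 250 genes was -0.17, -0.02 and -0.14 in the UV-C treated *jac1* samples, against 0.09, 0.26 and 0.18 in the non-treated *jac1* samples. The *jac1* groups did not overlap, and their means were -0.11 ± 0.08 in treated and 0.18 ± 0.08 in non-treated plants (SD, n = 3 each). In the wild type the level was 0.03, -0.04 and 0.02 after UV-C, against 0.12, 0.04 and 0.19 without treatment, with means of 0.01 ± 0.04 and 0.12 ± 0.08 (SD, n = 3 each). The wild-type groups did not overlap either, but replicate 1 of the treated and replicate 2 of the non-treated samples differed by less than 0.01. As a share of all nuclear counts, the 250 genes took 1.32%, 1.49% and 1.37% in UV-C treated *jac1*, against 1.95%, 2.18% and 2.03% in non-treated *jac1*, and 1.53%, 1.47% and 1.53% in the UV-C treated wild type, against 2.08%, 1.96% and 2.11% in the non-treated wild type.

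**Figure D1:**
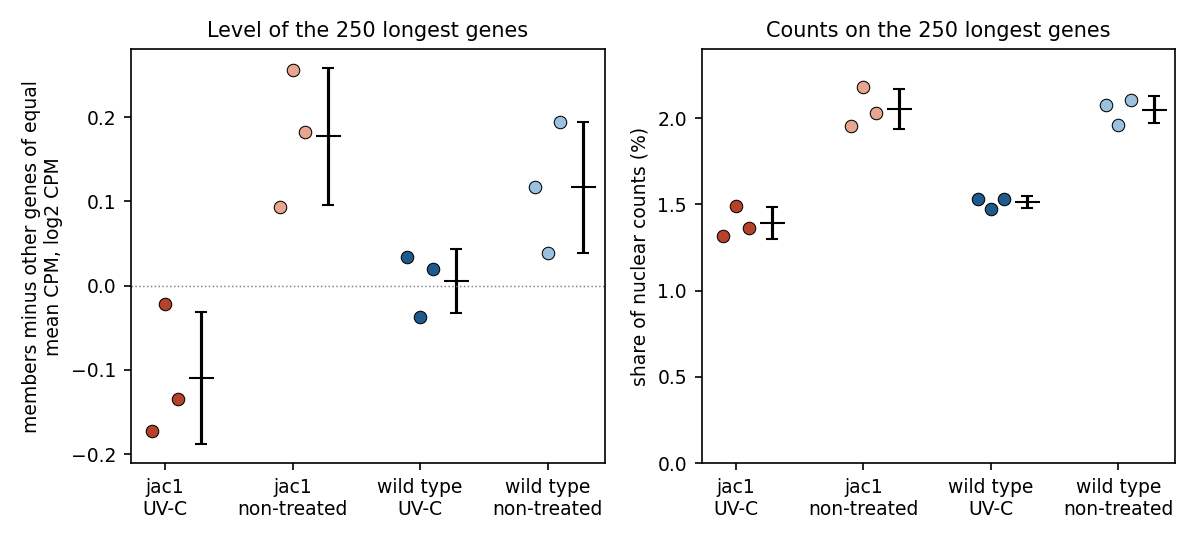
Level of the 250 longest genes in each sample, by group: left, log2 CPM minus that of other genes of equal mean CPM; right, share of nuclear counts in percent. Points are samples, bars the mean and SD of 3 replicates, and in both panels every UV-C treated sample lies below every non-treated sample of its genotype.

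These log2 FC values are relative to the TMM factors. On library size alone, without those factors, the median of all genes tested moved to -0.34 in *jac1* and -0.23 in the wild type, and that of the 250 genes to -0.58 and -0.42. On that scale 210 of the 250 fell and 1 rose in *jac1*, where 45.7% of all genes fell and 11.1% rose, and 191 fell and 5 rose in the wild type, where 37.8% fell and 9.49% rose. Most single rises in *jac1* reported below therefore did not pass on library size alone. Both scales are relative, one to the TMM factors and the other to total nuclear counts.

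Medians were lower in the bins of longer span. In 10 bins of all other genes by span, the median log2 FC in *jac1* went down from 0.25 in the shortest bin (63 to 1063 bases) to -0.08 in the longest (4571 to 8259 bases), and the 250 genes continued this at -0.21. The corresponding wild-type medians were 0.30 in the shortest bin, -0.12 in the longest and -0.19 in the 250 genes. Within the 250, the 50 longest had a median of -0.33 in *jac1* and -0.22 in the wild type, and the next 50 had -0.22 and -0.15. The genes ranked 101 to 150 had -0.19 in both, those ranked 151 to 200 had -0.12 and -0.19, and those ranked 201 to 250 had -0.19 and -0.18. The order was thus broken in both genotypes, by a weaker median at ranks 151 to 200 in *jac1* and at ranks 51 to 100 in the wild type. Beyond the 250, medians were -0.09 in *jac1* and -0.12 in the wild type at ranks 251 to 500, -0.09 and -0.14 at ranks 501 to 1000, and -0.08 and -0.11 at ranks 1001 to 2000. Across the 250 genes, span and log2 FC had a Spearman correlation of -0.14 in *jac1* and -0.004 in the wild type, given as a description since genes share libraries and are not replicates.

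**Figure D2:**
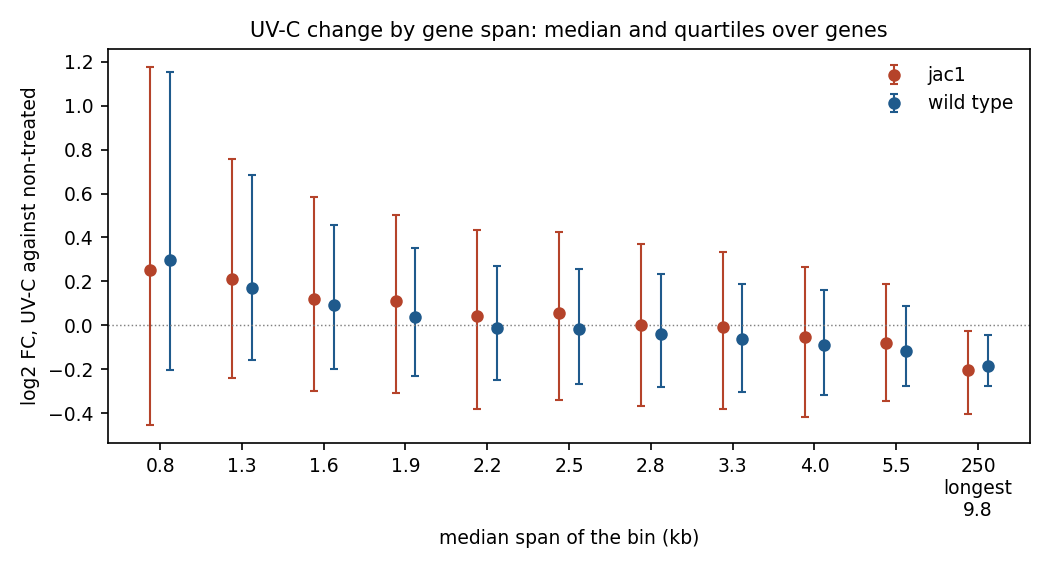
UV-C change (log2 FC, treated over non-treated) by gene span for 10 bins of other genes and the 250 longest, *jac1* in red and wild type in blue. Bins are not matched for CPM, which is not divided by length and is higher in the bins of longer span. Points are medians and bars the quartiles over genes; the medians are 0.25 and 0.30 in the shortest bin, -0.08 and -0.12 in the longest bin of other genes, and -0.21 in *jac1* and -0.19 in the wild type for the 250 longest.

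The change followed exonic length more closely than intron length. Over all genes tested, the Spearman correlation of log2 FC with exonic length was -0.19 in *jac1* and -0.25 in the wild type. With intron length it was -0.03 and -0.06. Across the 250 genes the correlation was -0.28 and -0.18 with exonic length, and 0.10 and 0.16 with intron length. Since a minimum span was required, shorter exons among the 250 had to come with longer introns. The 125 genes with the longer exonic length had a median of -0.26 in *jac1*, with 61 lower and 3 higher, against -0.14, with 48 lower and 12 higher, in the other 125. Their medians in the wild type were -0.20 and -0.17. The 125 genes with the longer introns had medians of -0.19 in *jac1* and -0.16 in the wild type, against -0.24 and -0.20 in the 125 with the shorter introns. A comparison with other genes of equal exonic length was possible only for the 125 genes with the shorter exonic length, up to 5945 bases, since the strata of longer exons held fewer than 20 other genes. The mean difference over these 5 strata was -0.03 in *jac1* and -0.01 in the wild type. The first of them, from 599 to 4088 exonic bases, had -0.12 in *jac1* and -0.13 in the wild type. That stratum held 19468 of the 20889 other genes, so exonic length was only loosely matched in it. The other strata lay between -0.07 and 0.05 in *jac1* and between -0.04 and 0.08 in the wild type. Exonic length is also the length of the RNA, which the counts were taken on, so length of the template and length of the transcript cannot be told apart in it.

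Of the 250 genes, 159 (63.6%) were also among the 250 with the longest exonic length, and these had medians of -0.26 in *jac1* and -0.20 in the wild type. The 91 outside the 250 longest exonic lengths had medians of -0.12 and -0.15. The 91 genes with long exons but shorter spans had -0.19 and -0.23. All genes with at least 10 CPM were also divided into 3 equal classes of exonic length and 3 of intron length. In the class with the longest exons, the median in *jac1* was -0.17 with the shortest introns, -0.10 with the middle class and -0.08 with the longest. Those in the wild type were -0.22, -0.16 and -0.13. With the middle exons, in the same order, medians were 0.08, 0.05 and 0.05 in *jac1* and -0.08, -0.04 and -0.03 in the wild type. With the shortest exons they were 0.15, 0.15 and 0.16 in *jac1* and 0.09, 0.07 and 0.06 in the wild type.

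**Figure D3:**
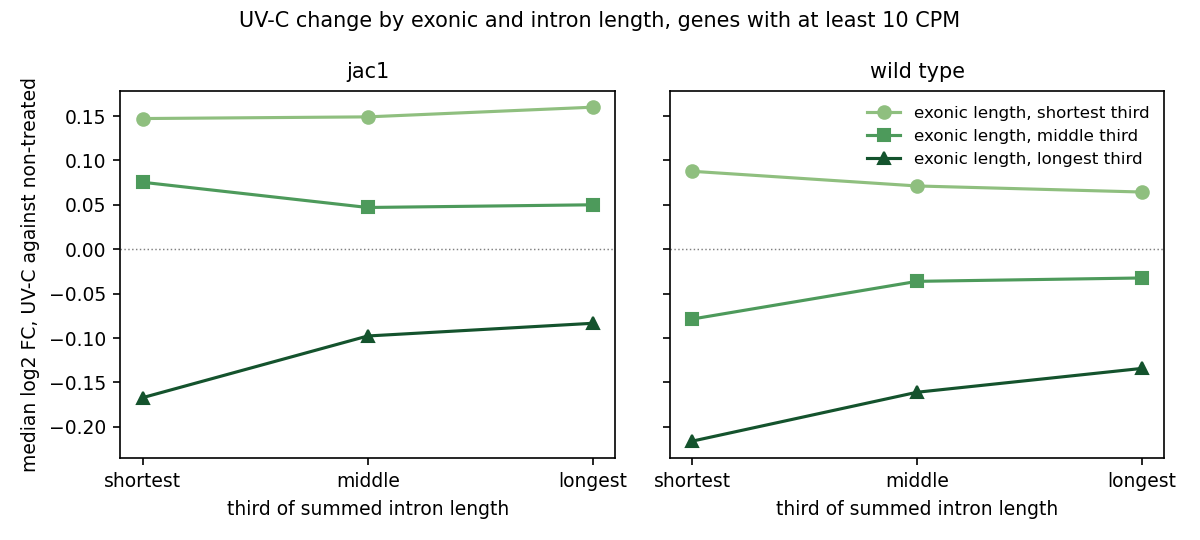
Median log2 FC (UV-C treated over non-treated) of genes with at least 10 CPM, by 3 equal classes of summed intron length (horizontal axis) and of exonic length (lines), in *jac1* and the wild type. The lines are ordered by exonic length at every intron length, and within the longest exons the median is -0.17 in *jac1* and -0.22 in the wild type for the shortest introns, against -0.08 and -0.13 for the longest.

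The single largest decrease was that of AT2G25730, a zinc finger FYVE domain protein with a span of 16688 bases (chromosome 2, 10956263 to 10972951). Its expression was 26.2, 29.4 and 27.2 CPM in UV-C treated *jac1*, against 79.0, 87.3 and 74.1 CPM in non-treated *jac1*, and 54.1, 46.8 and 52.0 CPM in the UV-C treated wild type, against 105, 104 and 110.0 CPM in the non-treated wild type. Every treated sample lay far below the non-treated ones of its genotype, with a log2 FC of -1.54 in *jac1* (SE 0.076, adjusted p = 1.54e-09) and -1.06 in the wild type (SE 0.073, adjusted p = 5.56e-08). AT4G17140, a pleckstrin homology domain protein and after AT1G67120 the next in length at 23543 bases, had 32.4, 33.6 and 28.5 CPM in UV-C treated *jac1*, against 70.6, 88.2 and 69.3 CPM in non-treated *jac1*. The UV-C treated wild type had 45.6, 44.5 and 47.9 CPM, against 85.6, 80.5 and 88.6 CPM in the non-treated wild type. Groups did not overlap in either genotype, and its log2 FC was -1.27 (adjusted p = 5.94e-08) in *jac1* and -0.89 (adjusted p = 2.73e-06) in the wild type. AT4G30990, an ARM repeat protein of 13888 bases, had 37.8, 44.7 and 40.1 CPM in UV-C treated *jac1*, against 85.8, 84.6 and 83.6 CPM in non-treated *jac1*, and 57.4, 60.6 and 50.9 CPM in the UV-C treated wild type, against 84.5, 68.8 and 80.4 CPM in the non-treated wild type. It fell in both, with a log2 FC of -1.05 in *jac1* and -0.47 in the wild type (adjusted p = 2.09e-07 and 0.000478). The fourth gene past 2-fold in *jac1* was the pseudogene AT3G60965, a single exon block of 9903 bases. It lies on the opposite strand inside the span of AT3G60961, the low-count gene named above, so the 2 are not separate loci. It had 5.22, 5.81 and 4.50 CPM in UV-C treated *jac1*, against 9.18, 11.5 and 10.8 CPM in non-treated *jac1*. No sample overlapped, and it fell by a log2 FC of -1.02 (adjusted p = 3.49e-06), and -0.73 in the wild type (adjusted p = 9.25e-05).

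The genes at the head of the order by span did not change evenly. AT1G48090, a calcium-dependent lipid-binding protein and the longest of all at 26498 bases, had 98.8, 119 and 97.8 CPM in UV-C treated *jac1*, against 105, 139 and 116 CPM in non-treated *jac1*, and 73.8, 76.1 and 84.9 CPM in the UV-C treated wild type, against 94.3, 90.2 and 97.2 CPM in the non-treated wild type. The *jac1* samples overlapped, and neither log2 FC, -0.19 in *jac1* (adjusted p = 0.115) and -0.26 in the wild type (adjusted p = 0.0435), passed the test. The next longest, AT1G67120 at 26210 bases, encodes a midasin-like protein (midasin is an AAA-type ATPase of ribosome assembly). It fell in both genotypes, with 30.3, 36.6 and 34.0 CPM in UV-C treated *jac1*, against 54, 59.5 and 58.5 CPM in non-treated *jac1*, and 47.5, 43.9 and 43.3 CPM in the UV-C treated wild type, against 56.8, 53.4 and 57.1 CPM in the non-treated wild type. No treated sample reached a non-treated one, and its log2 FC was -0.77 in *jac1* and -0.31 in the wild type (adjusted p = 6.80e-07 and 0.00235). AT1G58602, a disease resistance protein with LRR and NB-ARC domains, spans 19694 bases through its introns, with 5397 exonic bases in 9 blocks. Its level was 198, 207 and 212 CPM in UV-C treated *jac1*, against 354, 401 and 403 CPM in non-treated *jac1*, and 213, 246 and 223 CPM in the UV-C treated wild type, against 397, 399.7 and 407 CPM in the non-treated wild type. It was far lower after UV-C in both genotypes, with a log2 FC of -0.91 and -0.82 in *jac1* and the wild type (adjusted p = 6.84e-08 and 2.99e-07).

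Of the other genes among the 10 longest, BIG (AT3G02260), a calossin-like protein needed for auxin transport, fell in both genotypes, with a log2 FC of -0.36 in *jac1* and -0.32 in the wild type (adjusted p = 0.000546 and 0.00195). AT5G24740, annotated as a putative vacuolar protein sorting protein, fell in *jac1* (log2 FC -0.44, adjusted p = 0.00122) and had -0.25 in the wild type (adjusted p = 0.0406). AT2G17930, of the phosphatidylinositol kinase family with a FAT domain, also fell in *jac1* (log2 FC -0.28, adjusted p = 0.00597) and had -0.20 in the wild type (adjusted p = 0.0504). ILA (ILITYHIA), a HEAT repeat protein of the translation stress pathway, AT4G36080, annotated as a phosphatidylinositol kinase, and TIL1, the catalytic subunit of DNA polymerase epsilon, did not pass the test in either genotype. Their log2 FC in *jac1* and the wild type was -0.25 and -0.15 for ILA, -0.19 and -0.08 for AT4G36080, and -0.13 and 0.19 for TIL1. So 6 of the 10 longest fell in *jac1* and 4 in the wild type. In the full set of longest genes, 43.6% fell in *jac1* and 28.4% in the wild type. Of all genes tested, 21.7% fell in *jac1* and 17.2% in the wild type. With only 10 genes, nothing particular to the head of the order is read from these counts.

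**Figure D4:**
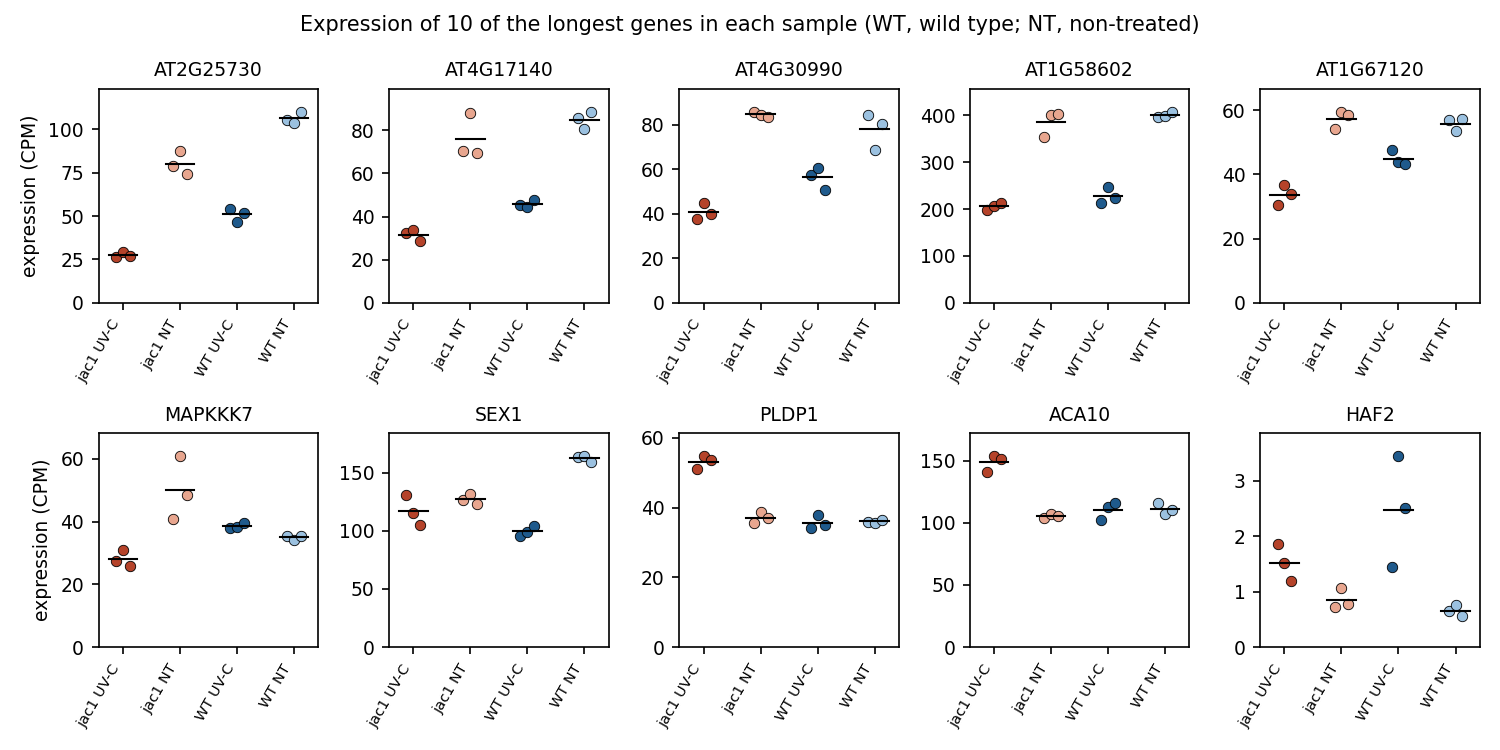
Expression in CPM of 10 of the 250 longest genes in each sample, with the 4 groups along each horizontal axis (UV-C treated left of non-treated, *jac1* left of wild type). Points are samples and lines the means of 3; AT2G25730 lies between 26.2 and 29.4 CPM in UV-C treated *jac1* and above 74 CPM in non-treated *jac1*, while PLDP1 and ACA10 are higher after UV-C in *jac1* and overlap in the wild type.

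The 250 genes were grouped by product name, and the counts of each group stand against 43.6% of the 250 that fell in *jac1* and 28.4% in the wild type. Groups are small, and nothing particular to a group is read from its count. Among the 25 genes of chromatin and transcription, 16 fell in *jac1* (median log2 FC -0.26), and 8 fell and 1 rose in the wild type (median -0.23), beside medians of 0.04 and 0.00 over all genes tested. PTM (AT5G35210), a PHD transcription factor with membrane domains known from chloroplast-to-nucleus signalling, had 147, 175 and 149 CPM in UV-C treated *jac1*, against 219, 244 and 221 CPM in non-treated *jac1*, and 162, 155 and 163 CPM in the UV-C treated wild type, against 217, 190.0 and 220.2 CPM in the non-treated wild type. It fell without overlap in both, with a log2 FC of -0.54 and -0.38 (adjusted p = 3.75e-05 and 0.00102). AT1G02080, annotated as a transcription regulator, fell in *jac1* (log2 FC -0.27, adjusted p = 0.00554) and had -0.22 in the wild type (adjusted p = 0.0222). The exception was *HAF2* (AT3G19040), a TAF1-type histone acetyltransferase of the general transcription factor TFIID, with 1.86, 1.51 and 1.20 CPM in UV-C treated *jac1*, against 0.726, 1.06 and 0.771 CPM in non-treated *jac1*, and 1.44, 3.44 and 2.51 CPM in the UV-C treated wild type, against 0.652, 0.757 and 0.556 CPM in the non-treated wild type. Treated samples lay above non-treated ones in both genotypes at a very low level, and the gene rose in the wild type (log2 FC 1.90, SE 0.30, adjusted p = 0.000164), while its log2 FC of 0.84 in *jac1* did not pass (adjusted p = 0.0337).

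Of the 10 callose and cellulose synthase genes, 6 fell and 1 rose in *jac1* (median -0.30) and 4 fell and 1 rose in the wild type (median -0.18). GSL10 (AT3G07160), a callose synthase of pollen development, had 93.7, 105 and 102 CPM in UV-C treated *jac1*, against 127, 149 and 140.5 CPM in non-treated *jac1*, and 96.3, 93.1 and 98.2 CPM in the UV-C treated wild type, against 119.9, 117 and 132 CPM in the non-treated wild type. It fell in both, with a log2 FC of -0.47 and -0.36 (adjusted p = 5.16e-05 and 0.000795). GSL12 (AT5G13000), a callose synthase of plasmodesmata, fell in *jac1* (-0.33, adjusted p = 0.000873) and had -0.10 in the wild type (adjusted p = 0.237). The gene that rose in both was GSL04 (AT3G14570), named after its values were seen, with 5.97, 6.59 and 7.44 CPM in UV-C treated *jac1*, against 3.32, 3.83 and 3.03 CPM in non-treated *jac1*, and 7.06, 6.15 and 6.81 CPM in the UV-C treated wild type, against 3.72, 3.65 and 3.84 CPM in the non-treated wild type. Its groups did not overlap, and the log2 FC was 0.97 in *jac1* and 0.84 in the wild type (adjusted p = 1.33e-05 and 7.28e-05).

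Of the 14 genes of membrane traffic and the cytoskeleton, 8 fell in *jac1* (median -0.30) and 4 in the wild type (median -0.22), and the others did not pass. Both clathrin heavy chains, which form the coat of endocytic vesicles, belonged to them. AT3G11130 fell in *jac1* (log2 FC -0.25, adjusted p = 0.00508) and had -0.21 in the wild type (adjusted p = 0.0207), while AT3G08530 had -0.03 and -0.21 (adjusted p = 0.660 and 0.0150) and passed in neither. These 2 genes are close paralogs, so reads that fit both were not counted. Of the 6 ABC transporters, 3 fell in *jac1* and 2 in the wild type (medians -0.24 and -0.19), among them ABCC2 (AT2G34660), a vacuolar pump for conjugates, with -0.32 in *jac1* (adjusted p = 0.00735) and -0.18 in the wild type (adjusted p = 0.114). ABCC1 (AT1G30400), of the same kind, did not pass, with -0.16 and -0.001.

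Motor proteins move cargo along the cytoskeleton. Of 15 genes, 5 fell in *jac1* (median -0.10), and 2 fell and 3 rose in the wild type (median -0.002). XIK (AT5G20490), a myosin that drives organelle movement, fell in *jac1* (-0.37, adjusted p = 0.000649) and had -0.22 in the wild type (adjusted p = 0.0226). The 3 that rose in the wild type, all named after their values were seen, were POK1 and POK2, kinesins that orient the division plane, and XID, a myosin. POK1 (AT3G17360) had 9.19, 7.31 and 8.40 CPM in the UV-C treated wild type, against 4.39, 3.67 and 4.80 CPM in the non-treated wild type, a log2 FC of 0.95 (adjusted p = 0.000336). In *jac1* it had 4.80, 5.64 and 5.60 CPM after UV-C, against 4.07, 5.84 and 3.66 CPM without treatment, groups that overlapped, and a log2 FC of 0.24 (adjusted p = 0.257). POK2 (AT3G19050) had a log2 FC of 0.93 in the wild type (adjusted p = 0.000596) and 0.16 in *jac1* (adjusted p = 0.471). The difference between genotypes did not pass for either kinesin (adjusted p of the interaction 0.0445 and 0.0373). AIR9 (AT2G34680), whose product is annotated as a dynein light chain, did not pass in either genotype (0.06 in *jac1* and 0.24 in the wild type), and its value in *jac1* was -0.31 with libraries scaled by size alone.

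Of the 20 genes annotated as metabolic enzymes, 8 fell and 2 rose in *jac1* (median -0.14) and 5 fell and 1 rose in the wild type (median -0.11). Highest in CPM among them were the glutamate synthases GLU1 and GLT1, which assimilate ammonium. GLU1 (AT5G04140), the ferredoxin-dependent glutamate synthase of photorespiration, had 932, 853 and 903 CPM in UV-C treated *jac1*, against 1138, 1377 and 1275 CPM in non-treated *jac1*, and 860.3, 912 and 942 CPM in the UV-C treated wild type, against 1134, 1215 and 1180.0 CPM in the non-treated wild type. GLT1 (AT5G53460), the NADH-dependent form, had 203, 222 and 233 CPM in UV-C treated *jac1*, against 277, 350.2 and 296 CPM in non-treated *jac1*, and 194, 181 and 208 CPM in the UV-C treated wild type, against 278, 287 and 262 CPM in the non-treated wild type. Both fell without overlap between the groups in both genotypes, GLU1 by a log2 FC of -0.50 and -0.38 (adjusted p = 3.25e-05 and 0.000528) and GLT1 by -0.49 and -0.50 (adjusted p = 0.000201 and 0.000262). The words that defined this set also caught proteins annotated only as nucleoside triphosphate hydrolases.

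In the remaining sets the shares that fell lay on either side of those of the 250. Of 7 genes of DNA replication and repair, 2 fell in *jac1* and 2 in the wild type. RAD50 (AT2G31970), a subunit of the complex that senses double-strand breaks, fell in both (-0.37 and -0.25, adjusted p = 0.00035 and 0.00841). DME (AT5G04560), a DNA demethylase, had 0.05 and -0.10 and passed in neither, and its value in *jac1* was -0.33 with libraries scaled by size alone. Of 15 genes of RNA processing, 5 fell in *jac1* and 4 in the wild type. Of its core spliceosome proteins, SUS2, the PRP8-type splicing factor, passed in neither (-0.13 and -0.10), and emb1507, a U5 snRNP helicase, fell in the wild type (-0.29, adjusted p = 0.00565) and had -0.20 in *jac1* (adjusted p = 0.0321). Of 14 genes of ubiquitin ligases and proteolysis, 5 fell and 2 rose in *jac1*, and 3 fell in the wild type. DEG7 (AT3G03380), a DegP-type serine protease, rose in *jac1* (0.28, adjusted p = 0.00182), which turned to -0.10 with libraries scaled by size alone, and had 0.17 in the wild type. TPP2 (AT4G20850), a tripeptidyl peptidase, passed in neither (0.17 and -0.09). Of 12 genes annotated as kinases and phosphatases, 4 fell in *jac1* and 2 in the wild type, and AT5G40450, an A-kinase anchor-like protein, had 0.25 and 0.17 and passed in neither. Of the 4 transporters and channels, 2 fell in each genotype, among them ECA3 (AT1G10130), a calcium pump (-0.23 and -0.25, adjusted p = 0.0063 and 0.0047). Only 2 genes were grouped with immune receptors, AT1G58602 and AT5G35180, whose product name mentions disease resistance. The remaining 106 genes, among them PHOT2 (AT5G58140), the blue light receptor of chloroplast movement, had 44 lower and 8 higher in *jac1* and 32 lower and 2 higher in the wild type. PHOT2, named after its values were seen, fell slightly in the wild type (-0.26, adjusted p = 0.00905) and had -0.09 in *jac1* (adjusted p = 0.306).

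The UV-C comparisons of the genotypes share no samples. Of the genes that fell, 57 were shared, which is 52.3% of the 109 in *jac1* and 80.3% of the 71 in the wild type. Over all genes tested, the genes that fell in both were 52.2% of those that fell in *jac1* and 65.8% of those that fell in the wild type. A further 4 of the 250 rose in both, as did 2553 of the 21139 genes tested. These 4 were 26.7% of those that rose in *jac1* and 50% of those in the wild type. Over all genes tested these shares were 47.0% and 72.2%. Of the 250, 183 (73.2%) lay below 0 in both, against 36.1% of all genes tested. The log2 FC of the genotypes had a Spearman correlation of 0.67 across the 250 genes and 0.65 across all genes tested, given as a description, since genes share libraries.

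**Figure D5:**
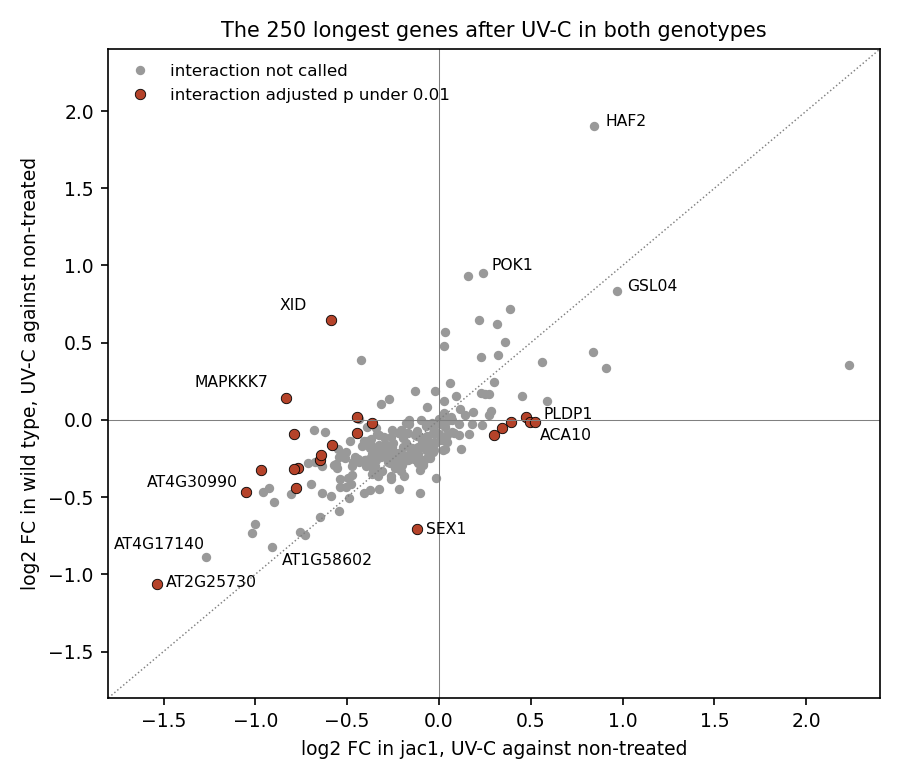
UV-C change (log2 FC, treated over non-treated) of the 250 longest genes in *jac1* (horizontal) and the wild type (vertical), with genes whose change differed between genotypes in red (interaction, adjusted p under 0.01) and the line of equal change dotted. Most points lie below 0 on both axes; 15 red genes lie above the dotted line and 7 below it.

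Whether the change differed between *jac1* and the wild type was tested by the interaction of UV-C and genotype. It was lower in *jac1* for 15 of the 250 genes and higher for 7, where 4.82% and 8.18% of all genes tested were called, so the share of lower calls (6%) was near that of all genes. Over the 250 genes, the interaction was -0.10 relative to genes of equal CPM, and 146 were more negative in *jac1*. Of the 15 genes, 8 fell in both genotypes and more in *jac1*, 6 fell in *jac1* and passed no test in the wild type, and 1, XID, rose in the wild type only. XID (AT2G33240) was the only one past 2-fold (interaction -1.23, adjusted p = 0.00679), where 1.74% of all genes were lower by that much, at 0.979, 0.949 and 1.05 CPM in UV-C treated *jac1*, against 1.26, 1.85 and 1.38 CPM in non-treated *jac1*, and 3.35, 2.54 and 3.18 CPM in the UV-C treated wild type, against 2.12, 1.67 and 1.97 CPM in the non-treated wild type. Its treated samples lay below the non-treated ones in *jac1* and above them in the wild type. The counts were sensitive to single libraries, with 6 to 15 lower and 4 to 7 higher when each of the 12 samples was left out in turn, and to the block by library-name numbers, with 2 lower and 3 higher.

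MAPKKK7 (AT3G13530), a MAP kinase kinase kinase, had 27.5, 31.1 and 25.8 CPM in UV-C treated *jac1*, against 40.9, 60.9 and 48.5 CPM in non-treated *jac1*, and 37.9, 38.4 and 39.7 CPM in the UV-C treated wild type, against 35.6, 34.2 and 35.4 CPM in the non-treated wild type. Non-treated *jac1* was the high group, and the interaction was -0.97 (SE 0.16, adjusted p = 0.000645), with a log2 FC of -0.83 in *jac1* (adjusted p = 2.52e-05) and 0.14 in the wild type (adjusted p = 0.317). EMB2788 (AT4G27010), annotated for ribosome biogenesis, had 7.18, 7.54 and 7.0 CPM in UV-C treated *jac1*, against 14.4, 13.8 and 14.3 CPM in non-treated *jac1*, and 12.8, 11.5 and 12.1 CPM in the UV-C treated wild type, against 16.4, 14.6 and 14.7 CPM in the non-treated wild type. It fell in both genotypes and by more in *jac1* (log2 FC -0.97 and -0.33, interaction -0.64, adjusted p = 0.000674). EMB2771 (AT5G05560), annotated as an E3 ubiquitin ligase, had 13.1, 14.6 and 12.3 CPM in UV-C treated *jac1*, against 21.8, 24.1 and 23.3 CPM in non-treated *jac1*, and 20, 17.6 and 17.7 CPM in the UV-C treated wild type, against 18.9, 18.7 and 21.4 CPM in the non-treated wild type. Only the *jac1* groups were apart, and the interaction was -0.70 (adjusted p = 0.000703). Spans overlap another gene in all 3 of these. AT2G25730, AT4G30990 and AT1G67120, described above, also differed, with interactions of -0.48, -0.58 and -0.46 (adjusted p = 0.0046, 0.00325 and 0.00475), while AT4G17140 did not pass (-0.39, adjusted p = 0.0411). With the block by library-name numbers, EMB2771, AT2G25730, AT4G30990 and AT1G67120 did not pass either (adjusted p = 0.0107, 0.0192, 0.0354 and 0.0584).

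Of the 7 genes with a higher interaction, 6 rose in *jac1* alone. PLDP1 (AT3G16785), a phospholipase D that makes phosphatidic acid, had 51.0, 54.7 and 53.8 CPM in UV-C treated *jac1*, against 35.7, 38.6 and 36.9 CPM in non-treated *jac1*, and 34.0, 37.9 and 35.1 CPM in the UV-C treated wild type, against 36.0, 35.5 and 36.5 CPM in the non-treated wild type. UV-C treated *jac1* was the only high group, with a log2 FC of 0.52 in *jac1* (adjusted p = 3.07e-06), -0.01 in the wild type, and an interaction of 0.53 (SE 0.081, adjusted p = 0.000339). ACA10 (AT4G29900), an autoinhibited calcium pump, had 141, 154 and 152 CPM in UV-C treated *jac1*, against 104, 107 and 106 CPM in non-treated *jac1*, and 102, 112 and 116 CPM in the UV-C treated wild type, against 116, 107 and 110.4 CPM in the non-treated wild type. Its pattern was that of PLDP1, with 0.50 in *jac1* (adjusted p = 7.97e-06), -0.01 in the wild type and an interaction of 0.51 (adjusted p = 0.000726). With libraries scaled by size alone both values in *jac1* lost the call, at 0.15 and 0.12 (adjusted p = 0.0418 and 0.0956). AT4G28080, a TPR-like protein, had 1072, 1146 and 1053 CPM in UV-C treated *jac1*, against 722, 861 and 771 CPM in non-treated *jac1*. It rose there (log2 FC 0.47, adjusted p = 5.15e-05) and had 0.02 in the wild type. AT5G35180 rose by 0.34 in *jac1* (adjusted p = 0.00027) and had -0.05 in the wild type, and with libraries scaled by size alone its value in *jac1* was -0.03. Its interaction of 0.39 did not pass with the block by library-name numbers (adjusted p = 0.0237).

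SEX1 (AT1G10760), the glucan, water dikinase that phosphorylates starch before its degradation, was the seventh and behaved in the opposite way. Its level was 131, 116 and 105 CPM in UV-C treated *jac1*, against 127, 132 and 123 CPM in non-treated *jac1*, and 96.0, 98.9 and 104 CPM in the UV-C treated wild type, against 164, 164 and 159 CPM in the non-treated wild type. Only the wild type passed the test, with a log2 FC of -0.71 (adjusted p = 2.43e-06) against -0.12 in *jac1* (adjusted p = 0.161), and the interaction was 0.59 (SE 0.099, adjusted p = 0.000807), which the block by library-name numbers brought to an adjusted p of 0.0126.

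Between the genotypes, few of the 250 genes passed the test without treatment: 3 were lower and 6 higher in non-treated *jac1* than in the non-treated wild type, where 4.17% and 5.07% of all genes were called. After UV-C 26 were lower and 30 higher in *jac1*, where 10.8% and 16.3% were called. In either direction these were 9 and 56 genes, against 9.24% and 27.1% of all genes. The shares of the 250 that were called lay below those of all genes. As a set, however, the 250 were slightly higher in non-treated *jac1* than in the non-treated wild type. Only 22.8% lay below 0, against 52.2% of all genes tested. Relative to genes of equal CPM the difference was 0.055, with none of the 10 strata lower. After UV-C it was -0.04, with 6 of the 10 strata lower. These comparisons share samples with the UV-C comparisons above.

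The genes that encode the machinery of elongation and of repair at stalled polymerases were looked at in turn. Of 24 genes for RNA polymerase II subunits, elongation factors, transcription-coupled and global repair and photolyases, none of which is among the 250 longest, 2 fell and 3 rose in *jac1* and 4 fell in the wild type, where 47.4% and 34% of all genes tested passed in either direction. The median log2 FC of the 24 was 0.02 in *jac1*, with 10 below 0, and -0.14 in the wild type, with 17 below 0. Those lower in *jac1* were DDB2, a sensor of UV photoproducts (log2 FC -0.85, adjusted p = 2.31e-05, against -0.34 in the wild type, adjusted p = 0.0186), and XPD, a helicase of TFIIH (-0.31, adjusted p = 0.00805). Those higher were SSRP1, a subunit of the histone chaperone FACT (0.64, adjusted p = 1.83e-06), CSA-1, which acts in transcription-coupled repair (0.39, adjusted p = 0.00125), and NRPB2, the second largest subunit of the polymerase (0.37, adjusted p = 0.000217). In the wild type XPB1, XPG, XPF and the elongation factor SPT6L fell, with log2 FC between -0.28 and -0.23. CHR8, the CSB homologue, passed in neither genotype (-0.19 and -0.23, adjusted p = 0.0804 and 0.0388). Only SSRP1 differed between genotypes (interaction 0.48, adjusted p = 0.00235).

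On either side of the limit of 250 genes the values varied from gene to gene. Just inside it, AT3G06670 (8299 bases) had a log2 FC of 0.30 in *jac1* and -0.10 in the wild type, LDL3 (8292 bases), a histone demethylase homologue, had -0.37 and -0.18, and AT1G15290 (8285 bases) had -0.02 and 0.19. Just outside it, HB-1 (8259 bases), a homeobox gene, had -0.50 and -0.51, GRL (8256 bases) had 0.21 and -0.07, and ACA8 (8248 bases), a calcium pump, had -1.43 and -1.05. With libraries scaled by size alone, the values of AT3G06670 and GRL in *jac1* were -0.08 and -0.16.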

How the data were processed

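Poly-A-selected RNA of whole rosettes was sequenced in 12 samples, 3 biological replicates in each of 4 groups taken from the sample labels. The authors deposited raw counts per gene, without normalization. Reads were aligned with STAR 2.5.2b and counted on exons with featureCounts of Subread 1.6.2, per the submitters' processing notes, on the Araport11 annotation. By the file's header, reads with several alignments or overlapping several genes were not counted and strand was not used, which lowers counts of paralogs and overlapping genes. Another column deposited by the authors gives gene length, used as exonic length. All 250 spans had the same coordinates in the RefSeq TAIR10.1 reference, which gave product names, gene types and sequence.

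Counts of nuclear genes with 5 or more reads in 3 or more samples were normalized by TMM and fitted over all 12 samples with 1 mean per group in edgeR 4.0.16 (R 4.3.3, limma 3.58.1, data.table version 1.17.8). Organelle genes and 2 genes that are not reported here were left out. Contrasts were tested two-sided with the quasi-likelihood F test, and p-values were adjusted over the 21139 genes by Benjamini-Hochberg. The quasi-likelihood test stands in place of the likelihood ratio test of the paper. Calls needed an adjusted p under 0.01, at any fold or past 2-fold. The SE of a log2 FC is its size over the square root of F. The script was tested on simulated data with known changes. Levels per sample are log2 CPM with a prior count of 2. Tables and figures used Python 3.11.15, pandas 2.3.3, numpy 2.4.6 and matplotlib 3.10.9.

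The genes, gene sets and tests were chosen with earlier results of these data known. Genes named are the 10 longest, up to 5 of the largest called changes per genotype with a mean of at least 1 CPM and no overlap, the 5 lowest interaction p, the 2 most expressed of each set (sets follow product names), and 3 on each side of the limit. Replicate numbers in the titles pair *jac1* samples (correlations of deviations 0.15, 0.11 and 0.20) and non-treated samples of both genotypes (0.52, 0.28 and 0.34), but not wild-type samples (-0.01, 0.19 and 0.07) or treated samples of both genotypes (-0.10, -0.24 and -0.04). Alternatives were DESeq2 1.42.0 and its size factors, library size only, the likelihood ratio test, other filters, protein-coding genes only, only the samples compared, 2 replicate blocks, an adjusted p under 0.05, other numbers of genes, other strata, and each sample left out.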

Additional observations from a re-analysis of the deposited data

Results flagged for a closer look

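The UV-C change of 12 named genes differed between *jac1* and the wild type by edgeR's interaction test (adjusted p under 0.01). The difference, *jac1* minus wild type on the log2 scale, was -0.97 for MAPKKK7, -0.70 for EMB2771, -0.64 for EMB2788, -0.58 for AT4G30990, -0.48 for AT2G25730 and -0.46 for AT1G67120. It was 0.59 for SEX1, 0.53 for PLDP1, 0.51 for ACA10, 0.45 for AT4G28080, 0.39 for AT5G35180 and 0.39 for AT3G06670. In all, 15 of the 250 longest genes had a lower and 7 a higher difference. With the block by library-name numbers, EMB2771, AT4G30990, AT2G25730, AT1G67120, SEX1, AT5G35180 and AT3G06670 did not pass (adjusted p between 0.0107 and 0.0584).

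RNAs that usually lack poly-A tails took a larger share of counts after UV-C. Chloroplast-encoded genes took a mean of 1.93% of counts in UV-C treated *jac1* and 2.06% in the UV-C treated wild type, against 0.0196% in non-treated *jac1* and 0.0183% in the non-treated wild type. Mitochondrion-encoded genes took 0.448% in UV-C treated *jac1* and 0.483% in the UV-C treated wild type, against 0.00516% in non-treated *jac1* and 0.00695% in the non-treated wild type. The 2 nuclear ribosomal RNA genes took 1.92% in UV-C treated *jac1* and 2.45% in the UV-C treated wild type, against 0.0071% in non-treated *jac1* and 0.00992% in the non-treated wild type. The relation of these RNAs to the level of the longest genes was not tested.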

How the results depend on the processing

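The median change of the longest genes, its difference from genes of equal CPM and its difference from the shortest genes were below 0 in both genotypes under every alternative that was run, while the counts moved. With libraries scaled by size alone, the medians were -0.58 (*jac1*) and -0.42 (wild type). In *jac1* 210 genes were lower, 1 higher and 26 past 2-fold, in the wild type 191, 5 and 4, and in the interaction 32, 3 and 2. On that scale the *jac1* change turned to -0.31 for AIR9, -0.032 for AT5G35180, -0.33 for DME, -0.10 for DEG7, -0.077 for AT3G06670 and -0.16 for GRL, and the wild-type change to -0.21 for AT4G28080. The likelihood ratio test gave 13 higher in the wild type, 23 lower in the interaction and 19 between non-treated genotypes. DESeq2's Wald test gave 24 lower and 2 past 2-fold in the interaction and 22 between non-treated genotypes, and DESeq2's size factors gave 2 past 2-fold in the interaction. Without a filter on low counts, the difference of the 250 genes from the shortest bin of span was -0.22 in *jac1* and -0.54 in the wild type, against -0.46 and -0.48. The replicate block by the titles' numbers gave 108 lower in *jac1*, 67 in the wild type, 0 past 2-fold in the interaction and 10 between non-treated genotypes. With the numbers in the library names as the block, which do not match the titles, 63 were lower in *jac1* and 46 in the wild type, 2 lower, 3 higher and 0 past 2-fold in the interaction, 3 between non-treated and 35 between treated genotypes, and the difference from the shortest bin in *jac1* was -0.36. At an adjusted p under 0.05, 115 were lower and 19 higher in the wild type, 33 lower in the interaction, 27 differed between non-treated and 87 between treated genotypes. Genes chosen by exonic length had 12 past 2-fold in *jac1* and 7 in the wild type. Fewer or more genes change these counts by construction. The 100 longest had 47 lower and 3 higher in *jac1*, 24 lower, 5 higher and 1 past 2-fold in the wild type, 0 higher in the interaction, 3 between non-treated and 26 between treated genotypes. The 500 longest had 190, 39 and 9 in *jac1*, 140, 20 and 5 in the wild type, 27, 16 and 4 in the interaction, and 21 and 138 between genotypes. Chosen after seeing the data, strata of exonic length gave differences of -0.026 in *jac1* and -0.015 in the wild type. They could be filled only for the 125 genes with the shorter exons, and the first was only loosely matched in length. Genes with at least 10 CPM had 3 higher and 1 past 2-fold in the wild type and 0 past 2-fold in the interaction, and genes without an overlapping neighbour had 67 lower in *jac1*, 46 in the wild type and 9 lower and 4 higher in the interaction. Apart from those stated to follow from the number of genes tested, the cause was not tested.

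Leaving out each sample in turn gave 75 to 122 lower, 12 to 15 higher and 3 to 6 past 2-fold in *jac1*, with medians of -0.25 to -0.17. In the wild type it gave 43 to 76 lower, 5 to 10 higher and 2 to 5 past 2-fold, with medians of -0.21 to -0.15, and a difference from the shortest bin of -0.53 to -0.41. In the interaction it gave 6 to 15 lower, 4 to 7 higher and 0 to 2 past 2-fold, and between genotypes 5 to 11 without treatment and 38 to 60 after UV-C. Depth limits the 26 genes under 10 CPM, of which 4 passed the test in *jac1* (3 lower and 1 higher) and 7 in the wild type (2 lower and 5 higher).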
